A study of Homo sapiens with 6 samples.

Results

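The genes described here build and run mitosis: the kinetochore, the spindle checkpoint, the mitotic kinases and the passenger complex, the mitotic kinesins, condensin, the machinery that releases sister chromatids, and the proteins of the spindle and of cytokinesis. They were chosen by name, from a list of 53 genes. For each, the probe set assigned to that gene alone was used, and where there were several, the one with the highest mean log2 intensity over all arrays. A probe set is a group of array probes that read one transcript. Of the 53 genes, 52 had such a probe set, among 18244 genes on the array. PTTG1, which encodes securin, was read only by 1 probe set that other genes share, so it was not used. The study measured RNA from P493-6, a line of human B-cell lymphoma cells whose c-Myc transgene is silent under tetracycline, on Affymetrix arrays hybridised with 1 colour. The groups were 2 low-Myc arrays (0 h after c-Myc was released), 2 mid-Myc arrays (1 h) and 2 high-Myc arrays (24 h). All groups were grown in the same medium and carry the same transgene, and ERCC synthetic RNAs were added to each extract by the number of cells. For the mid-Myc samples the labels conflict, since 1 protocol field gives 0 h and another 1 h, and their sample numbers stand apart from the others, so a separate batch and a change at 1 h cannot be told apart. The arrays are biological duplicates of 1 cell line, so n = 2 in every group below.

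Mitosis genes are a classic periodic programme. Most of them are transcribed late in the cell cycle, in G2 and M phase, and are held down in resting cells by a repressor complex named DREAM, whose MuvB core later pairs with B-MYB and FOXM1 to switch the same promoters on. MuvB reaches DNA through a short element near the start site, the cell cycle homology region, which often lies just downstream of CCAAT boxes bound by the factor NF-Y. Myc, in contrast, binds E-boxes. Kinetochores are the protein plates that hold each chromatid to spindle microtubules, condensin compacts the chromosomes, and the checkpoint delays anaphase until every kinetochore is attached.

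The promoters of 7 of these genes are shown to make the 2 motifs visible in their different arrangements. They include genes that rose and PLK1 and KIF20A, which were not called between high-Myc and low-Myc arrays when arrays were set to the same median. Each line gives the 120 bases before the RefSeq start site (GRCh38), read 5′ to 3′ in the direction of the gene. Capitals mark the cell cycle homology region (TTTGAA or TTCGAA) and the CCAAT box, each on either strand, so that a CCAAT box on the opposite strand reads ATTGG. The regions are chr15:40160949-40161068 (BUB1B), chr15:59105026-59105145 (CCNB2), chr1:43358861-43358980 (CDC20), chr15:69414229-69414348 (KIF23), chr16:23678769-23678888 (PLK1), chr15:90994536-90994655 (PRC1, minus strand) and chr5:138178992-138179111 (KIF20A), and those not marked otherwise are on the plus strand.
BUB1B: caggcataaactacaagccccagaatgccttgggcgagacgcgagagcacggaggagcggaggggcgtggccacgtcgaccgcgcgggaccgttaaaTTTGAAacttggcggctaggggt
CCNB2: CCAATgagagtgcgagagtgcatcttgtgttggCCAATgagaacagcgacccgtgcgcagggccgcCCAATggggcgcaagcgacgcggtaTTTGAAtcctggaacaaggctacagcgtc
CDC20: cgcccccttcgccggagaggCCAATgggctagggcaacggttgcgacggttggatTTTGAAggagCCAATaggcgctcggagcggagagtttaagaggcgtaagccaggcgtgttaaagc
KIF23: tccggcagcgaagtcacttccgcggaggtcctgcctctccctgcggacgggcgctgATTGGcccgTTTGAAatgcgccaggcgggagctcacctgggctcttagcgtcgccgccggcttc
PLK1: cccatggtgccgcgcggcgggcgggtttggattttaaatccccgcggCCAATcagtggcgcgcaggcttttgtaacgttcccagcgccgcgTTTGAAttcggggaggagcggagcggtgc
PRC1: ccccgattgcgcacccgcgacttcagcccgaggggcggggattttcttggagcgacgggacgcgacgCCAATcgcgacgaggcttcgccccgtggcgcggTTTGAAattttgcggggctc
KIF20A: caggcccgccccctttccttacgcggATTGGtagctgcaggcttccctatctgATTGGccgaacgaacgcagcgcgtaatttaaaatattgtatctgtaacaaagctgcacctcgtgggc
In CCNB2, which encodes cyclin B2, 3 CCAAT boxes precede the element, which begins at -29 relative to the start. In PLK1 the element also begins at -29, with 1 CCAAT box at -73. BUB1B has the element at -23 and no CCAAT box in these bases, and KIF20A has 2 CCAAT boxes and no match to either spelling of the element. In CDC20 1 of the 2 CCAAT boxes follows the element, which begins at -65.

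RefSeq promoter windows, from 250 bases before to 50 after the start, were matched for 45 of the 53 genes. CENPH, CENPM, BUB3, TTK, AURKA, BIRC5, UBE2C and TPX2 were not in the table. A gene with several windows was counted when any of them matched. The cell cycle homology region was found in 36 of the 45 genes (80%), against 16% of the 9953 tested genes with a window and 19.5% of all 27305 genes in the table. CCAAT boxes were found in 35 of the 45 genes (77.8%), against 43.0% of the tested genes. Both motifs were present in 27 genes (60%), against 6.73% of the tested genes. The Myc E-box CACGTG was in 5 genes (11.1%), namely ANLN, CENPE, CENPF, PLK1 and SGO1, against 12.5% of the tested genes. The motif classes were searched on both strands and overlap with each other was allowed.

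By position, the cell cycle homology region began in the last 50 bases before the start in 37.0% of the 54 windows of the mitosis genes, against 2.68% of the windows of all other genes. CCAAT boxes were most frequent between 100 and 50 bases before the start, in 50% of the mitosis windows against 12.9% of the others, and the bins on either side of it each held a match in 25.9% of the mitosis windows. Of the DNA replication genes, another cell cycle group, 1 of the 30 with a window (3.33%) held the cell cycle homology region, 18 (60%) a CCAAT box and 16 (53.3%) an E2F site (TTTCGCGC, TTTGGCGC, TTTCCCGC or TTTGCCGC). Of 87 further mitosis genes with a window, outside the 53, 43.7% held the cell cycle homology region, 56.3% a CCAAT box and 18.4% an E2F site. The E2F site was found in 3 of the mitosis genes (6.67%), CENPA, KIF15 and NUSAP1, against 6.47% of the tested genes. These matches describe letters in a window and were not tested as binding sites.

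**Figure D1:**
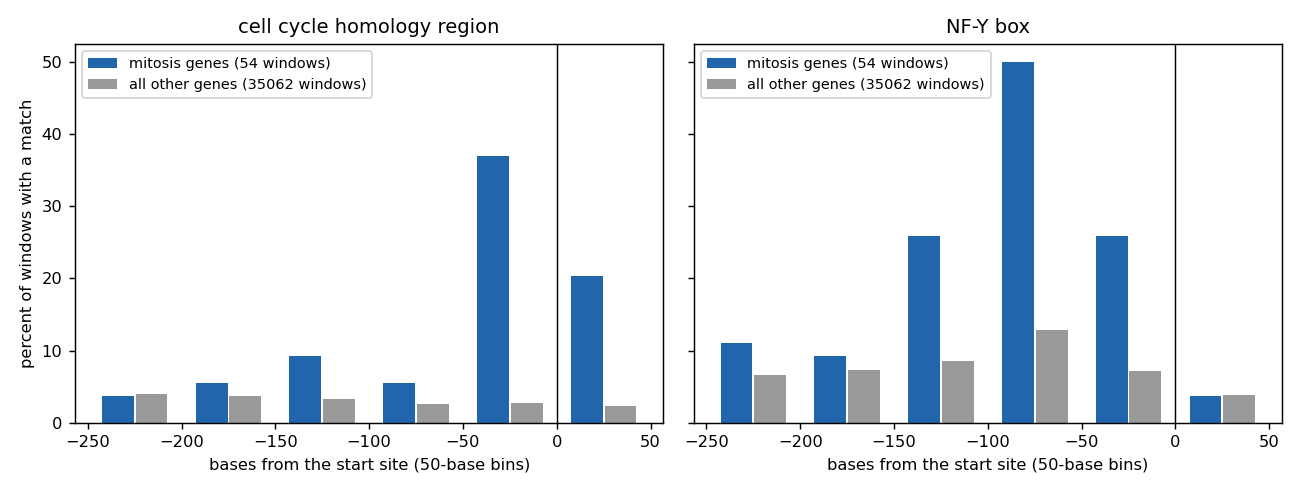
Share of promoter windows (vertical axis, percent) in which the cell cycle homology region (left) or the NF-Y box (right) begins in each 50-base bin of distance from the start site (horizontal axis), for mitosis genes (blue, 54 windows) and all other genes (grey, 35062 windows). The blue bars peak at 37.0% in the last 50 bases before the start for the first motif and at 50% in the bin before that for the second, where the grey bars stand at 2.68% and 12.9%.

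Replicate arrays of a group correlated at 0.9962 to 0.9965 over the tested genes. The MYC probe set read 9844 and 9568 in low-Myc cells, 10290 and 10440 in mid-Myc cells, and 12150 and 12430 in high-Myc cells, in intensity at equal median. It was therefore bright on every array, and its log2 difference between high-Myc and low-Myc was 0.34 (SE 0.03). Of 8 B-cell markers 7 were tested, led by MS4A1 at 9365 to 12780 as deposited, and in high-Myc against low-Myc cells 6 were lower and 1 higher at equal median, but 2 were lower and 4 higher per cell, the scale set by the added ERCC RNAs. The 8 T and NK cell markers never exceeded 77.9 as deposited, and of the 5 tested 1 was lower at equal median, while per cell 1 was lower and 4 higher. Of 6 monocyte markers 3 were tested, and 2 were lower at equal median and 1 per cell. Among these LYZ read 397 and 377 as deposited in high-Myc cells against 1206 and 1191 in low-Myc cells, while CD14 never exceeded 21.5. Over all tested genes in the same comparison, 37.7% were called higher and 26% lower at equal median, and 91% and 2.47% per cell. The ratio of 3' to 5' probe sets of ACTB, a sign of RNA integrity, was 3.67 and 3.44 in high-Myc cells, against 2.76 and 2.86 in low-Myc cells. GAPDH gave 1.13 to 1.23 on all arrays. The part of these markers and ratios in the results was not tested.

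Values are given on 2 scales. On the equal-median scale every array has the same median over human probe sets, so a difference is relative to the other RNA of the cell. On the per-cell scale a curve through the ERCC RNAs of each array sets the level, so a difference is an estimate of the change per cell. The curve did not level these RNAs fully. ERCC probe sets above the filter on low values still differed by a median of -0.12 (from -0.41 to 0.75) in high-Myc against low-Myc. Tests were limma fits across 12198 genes with Benjamini-Hochberg adjustment, and a gene was called when its adjusted p was under 0.05. All 52 mitosis genes passed the filter on low values.

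At 24 h of c-Myc the mitosis genes were higher almost throughout. On the equal-median scale 49 of the 52 were called higher and 0 lower in high-Myc against low-Myc cells, where 37.7% of all tested genes were called higher and 26% lower. At an unadjusted p under 0.05, for which the share of all tested genes was not taken, limma likewise gave 49 higher and 0 lower. The median difference was 0.92 on the log2 scale (1.89-fold), against 0.05 for all tested genes. Of those called, 21 were at least 2-fold higher, and 18 of the 52 exceeded the 90th percentile of all tested genes. In 51 of the 52 the high-Myc arrays lay above both low-Myc arrays, as did 45% of all tested genes. A larger share of cells in G2 and M phase and more RNA of these genes in each such cell cannot be told apart in bulk RNA.

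**Figure D2:**
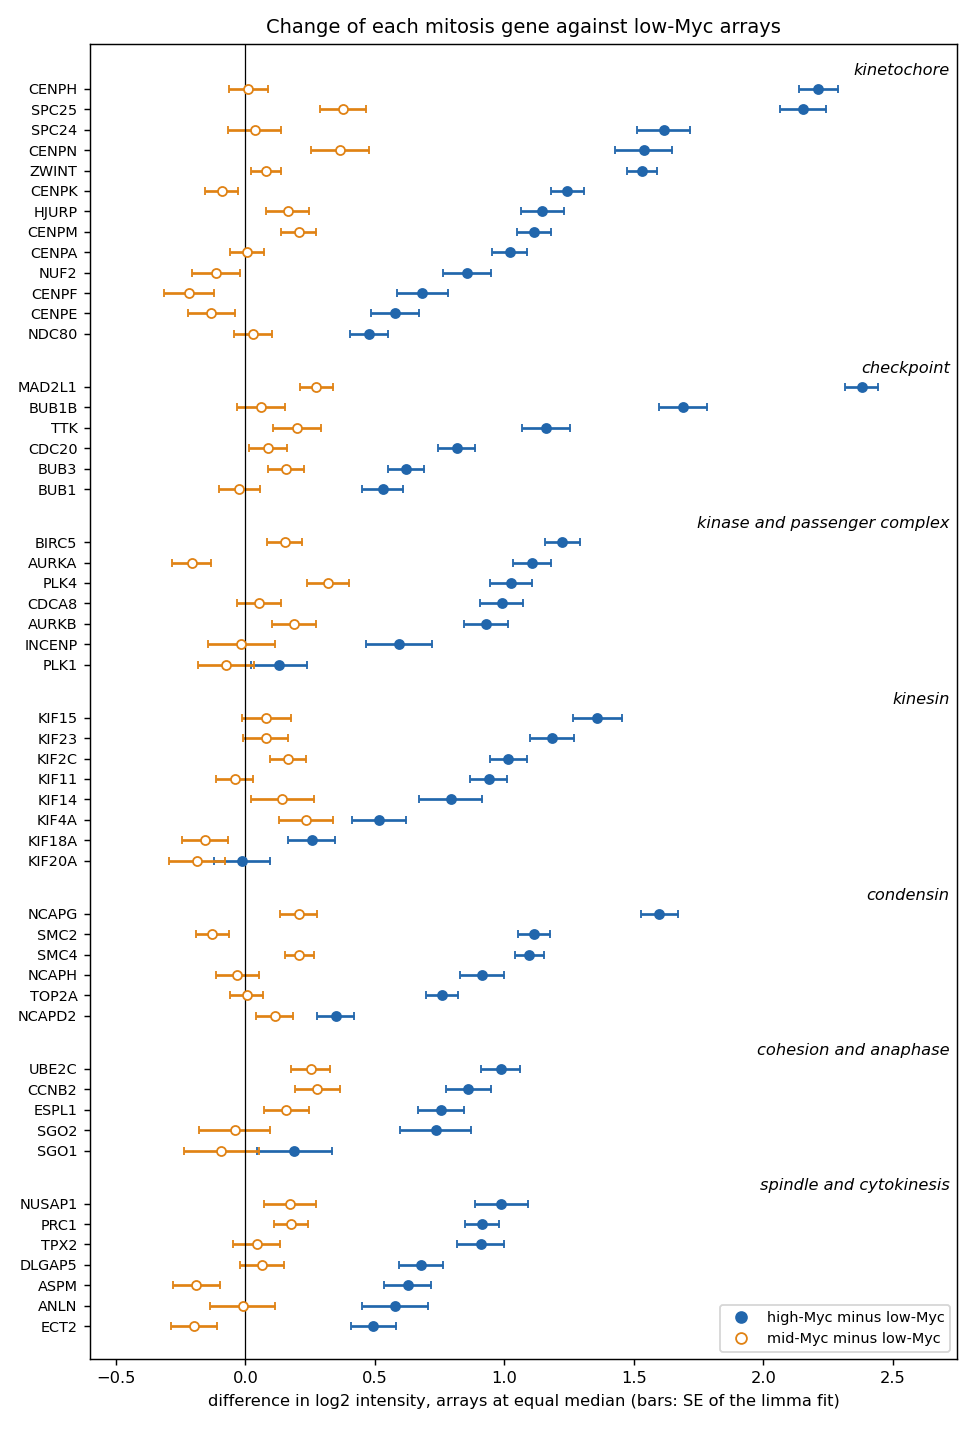
Difference in log2 intensity at equal median (horizontal axis) for each of the 52 genes, grouped by role, in high-Myc minus low-Myc (filled blue) and mid-Myc minus low-Myc (open orange), with bars giving the SE of the limma fit. The blue points run between -0.01 and 2.38, and the orange points between -0.22 and 0.38.

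Kinetochore genes had the highest median of the role groups. All 13 were called higher, with a median of 1.15 and a range of 0.48 to 2.21. CENPH, a subunit of the inner kinetochore network that sits on centromeric chromatin, read 454 and 429 in high-Myc cells against 94.3 and 95.9 in low-Myc cells, a 4.64-fold difference (log2 2.21, SE 0.08, limma adjusted p = 1.83e-11). SPC25, a subunit of the NDC80 complex that grips microtubules, read 255 and 234 in high-Myc cells against 54.8 and 55.2 in low-Myc cells, a 4.45-fold difference (log2 2.15, SE 0.09). The arrays of the groups lay far apart for both genes. NDC80, the microtubule-binding subunit that names that complex, changed least of the kinetochore genes, with 254 and 274 in high-Myc cells against 192 and 187 in low-Myc cells (log2 0.48, SE 0.07, limma adjusted p = 5.69e-05).

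The values differed between subunits of 1 complex, and in part between probe sets of 1 gene. Within the 4-subunit NDC80 complex the differences were 0.48 for NDC80, 0.86 for NUF2, 1.61 for SPC24 and 2.15 for SPC25, a span of 1.68 on the log2 scale. The other genes of that complex had 1 probe set each, but for SPC24 a pair of additional probe sets above the filter gave 0.45 and 0.47, close to NDC80, so the place of SPC24 in that order depends on the probe set. Among the inner kinetochore subunits, CENPM (1.11), CENPK (1.24) and CENPN (1.54) lay below CENPH. Additional probe sets of CENPN gave 0.925 and 0.94, below CENPM, so its place also depends on the probe set. CENPA, the histone H3 variant that marks the centromere, read 438 and 414 in high-Myc cells against 210 and 210 in low-Myc cells. It rose by 1.02 on the log2 scale and its chaperone HJURP by 1.15, while additional probe sets of CENPA gave 0.39 to 1.03. Over the 28 mitosis genes with additional probe sets above the filter, the largest gap between one of these and the one used had a median of 0.28 and reached 1.16 on the log2 scale, and it exceeded 0.5 in 8 genes.

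The checkpoint group held the most changed gene. All 6 genes were called higher, with a median of 0.99. MAD2L1, the protein that unattached kinetochores turn into an inhibitor of anaphase, read 1628 and 1662 in high-Myc cells against 320 and 313 in low-Myc cells, a 5.20-fold difference (log2 2.38, SE 0.06, limma adjusted p = 2.34e-12). BUB1B, which encodes the checkpoint protein BubR1, read 334 and 328 in high-Myc cells against 112 and 93.6 in low-Myc cells (log2 1.69, SE 0.09). TTK, the kinase that starts the signal, followed at 1.16, and CDC20, the activator of the anaphase-promoting complex that the checkpoint restrains, at 0.82. BUB3 (0.62) and BUB1 (0.53), which bind each other at the kinetochore, changed least with the probe sets used. An additional probe set of CDC20 gave 0.255 and those of BUB3 gave 0.44 and 0.92, so the lowest places depend on the probe set. For BUB1 the arrays read 548 and 485 in high-Myc cells against 380 and 335 in low-Myc cells, so the groups were separate but close.

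Among the kinases and the passenger complex, 6 of 7 genes were called higher, with a median of 0.99. BIRC5, which encodes survivin, the subunit that brings the passenger complex to centromeres, read 504 and 532 in high-Myc cells against 222 and 221 in low-Myc cells (log2 1.22, SE 0.07). The complex's kinase AURKB (0.93), borealin, encoded by CDCA8 (0.99), and the scaffold INCENP (0.59) rose with it, a span of 0.63. The additional probe sets of BIRC5 ranged from 0.29 to 1.06. AURKA, the kinase of spindle poles, read 438 and 436 in high-Myc cells against 210 and 196 in low-Myc cells (log2 1.11, SE 0.07), and PLK4, which starts centriole duplication, rose by 1.03. PLK1, a kinase with roles from mitotic entry to cytokinesis, was the exception. It read 67.4 and 66.8 in high-Myc cells against 59.5 and 63.3 in low-Myc cells, which was not called (log2 0.13, SE 0.11, limma adjusted p = 0.319).

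Kinesins, the motors of the spindle, gave 7 calls of 8 and a median of 0.87. KIF15, which helps to keep spindle poles apart, read 199 and 184 in high-Myc cells against 78.7 and 70.6 in low-Myc cells (log2 1.36, SE 0.09). KIF23, a motor of the centralspindlin complex in cytokinesis, read 221 and 201 in high-Myc cells against 91.4 and 94.3 in low-Myc cells (log2 1.18, SE 0.09). KIF2C, which takes microtubules apart at kinetochores, and KIF11, the main motor of pole separation, rose by 1.02 and 0.94. KIF14 (0.79) and KIF4A (0.52) had smaller values, and an additional probe set of KIF14 gave 0.16. KIF18A, which steadies chromosomes at the spindle's equator, differed by 0.26 (SE 0.09, limma adjusted p = 0.0231). Its call was lost with each other scaling, at 0.05 to 0.18 on the log2 scale (limma adjusted p from 0.106 to 0.617). It was also lost without low-Myc replicate 1 (0.23), low-Myc replicate 2 (0.28) or high-Myc replicate 2 (0.21). KIF20A, a motor that carries the passenger complex to the central spindle, read 80.8 and 86.4 in high-Myc cells against 87.0 and 82.0 in low-Myc cells, and these ranges overlap (log2 -0.01, SE 0.11, limma adjusted p = 0.918).

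The condensin genes and TOP2A, the topoisomerase that untangles sister DNA, were all called higher (6 of 6, median 1.00). NCAPG, a regulatory subunit of condensin I, read 455 and 445 in high-Myc cells against 144 and 154 in low-Myc cells, a 3.03-fold difference (log2 1.6, SE 0.07). The ATPase subunits SMC2 and SMC4 rose by 1.11 and 1.10, NCAPH, which closes the ring, by 0.91, and TOP2A by 0.76. NCAPD2, the other large regulatory subunit of condensin I, read 201 and 195 in high-Myc cells against 157 and 155 in low-Myc cells (log2 0.35, SE 0.07, limma adjusted p = 0.000782). That call was lost when arrays were centred on the tested genes (log2 0.14, limma adjusted p = 0.0736). The condensin I subunits spanned 1.25 on the log2 scale.

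In the cohesion and anaphase group 4 of the 5 genes measured were called higher, with a median of 0.76. UBE2C, the enzyme that supplies ubiquitin to the anaphase-promoting complex, read 558 and 572 in high-Myc cells against 299 and 272 in low-Myc cells (log2 0.99, SE 0.08). CCNB2 read 433 and 409 in high-Myc cells against 230 and 233 in low-Myc cells (log2 0.86, SE 0.09). ESPL1, which encodes separase, the protease that cuts cohesin, rose by 0.76 and SGO2 by 0.73. SGO1, the protector of centromeric cohesion, was the dimmest of the 52 genes, at 52.4 and 55.3 in high-Myc cells against 51.4 and 43.5 in low-Myc cells, and was not called (log2 0.19, SE 0.145, limma adjusted p = 0.279).

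All 7 genes of the spindle and cytokinesis group were called higher, over a range of 0.49 to 0.99 with the probe sets used. Additional probe sets of these genes above the filter ran from 0.13 (ECT2) to 1.04 (PRC1). NUSAP1, a microtubule-bundling protein of the spindle, read 578 and 532 in high-Myc cells against 312 and 250 in low-Myc cells (log2 0.99, SE 0.10). PRC1, which cross-links the microtubules of the central spindle, read 576 and 622 in high-Myc cells against 325 and 311 in low-Myc cells (log2 0.91, SE 0.07). TPX2, the activator of AURKA, matched it at 0.91. DLGAP5 (0.68), ASPM (0.63), the contractile ring scaffold ANLN (0.58) and ECT2, which switches on the ring's GTPase RhoA (0.49), rose less.

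**Figure D3:**
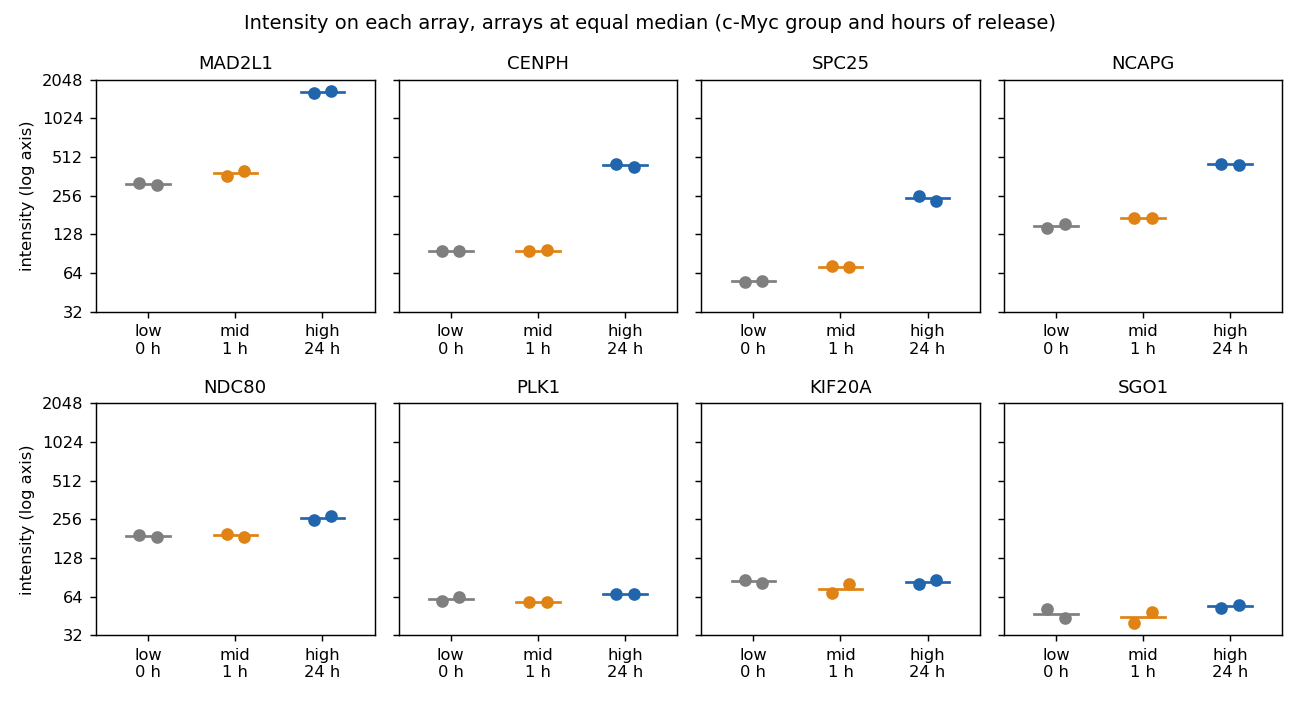
Intensity at equal median on a log axis for 8 genes on each of the 6 arrays, in low-Myc (grey, 0 h), mid-Myc (orange, 1 h) and high-Myc (blue, 24 h) cells. Points are arrays and lines are group means of log2 values. MAD2L1, CENPH, SPC25 and NCAPG stand high at 24 h, NDC80 slightly so, and PLK1, KIF20A and SGO1 stay between 40 and 87.0 on every array.

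The 3 genes that were not called were dim. Probe sets that match no transcript had a median intensity of 12.4, but the brightest of 23 stood at 694 and the second brightest at 194. The value of 194 was above the low-Myc level of 32 of the 52 genes, and 694 above that of still more. All 20 genes above 194 in low-Myc cells were called higher, with a median of 1.02, and the 32 below it had a median of 0.80. Genes with large differences could be as dim, such as SPC25, at 55 in low-Myc cells. Dim values include background signal, and its part in the small differences of PLK1, KIF20A and SGO1 was not tested. Above the filter, 28 genes had 53 additional probe sets, and all 53 had the sign of the one used, though not always its size. In 16 of the 28 genes every additional probe set gave a lower value than the one used.

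Grouped by the cell cycle homology region, the sizes of the differences were close. The 36 measured genes with a cell cycle homology region had a median difference of 0.86 between high-Myc and low-Myc cells, and the 8 without had 0.92. The 5 genes with an E-box had a median of 0.58, and the 39 without had 0.93. Those 5 include PLK1 (0.13) and SGO1 (0.19), which were not called, and all 5 were dim, below 194 in low-Myc cells. The 34 measured genes with a CCAAT box had a median of 0.84, and the 10 without had 1.06. With both the cell cycle homology region and a CCAAT box, 27 genes had 0.79, and the other 17 had 1.02. The 3 genes with an E2F site had 1.02, and the 41 without had 0.86. These medians are descriptions.

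Per cell, all 52 genes were called higher at 24 h than at 0 h, on a background of 91% of all tested genes higher and 2.47% lower. The median difference was 2.00 on the log2 scale (4-fold), against 0.98 for all tested genes, and 49 of the 52 were at least 2-fold higher. MAD2L1 read 2614 and 2658 per cell in high-Myc cells against 229 and 233 in low-Myc cells (log2 3.51, SE 0.05). The 3 genes not called at equal median were also higher per cell. PLK1 read 94.5 and 94.1 per cell in high-Myc cells against 45.9 and 51.0 in low-Myc cells (log2 0.96, SE 0.105, limma adjusted p = 1.03e-05). KIF20A differed by 0.91 per cell (SE 0.105) and SGO1 also by 0.91 (SE 0.141). These 3 were the genes of the list that lay below the median of all tested genes per cell. On the same scale the 23 probe sets that match no transcript differed by a median of 0.21, from -0.13 to 1.57. That range includes the per-cell differences of PLK1, KIF20A and SGO1. It also includes those of KIF18A (1.24), INCENP, KIF4A, NCAPD2, SGO2, CENPE, ECT2, ANLN and NDC80 (1.57), which were called at equal median. The part of background signal in all these differences was not tested.

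**Figure D4:**
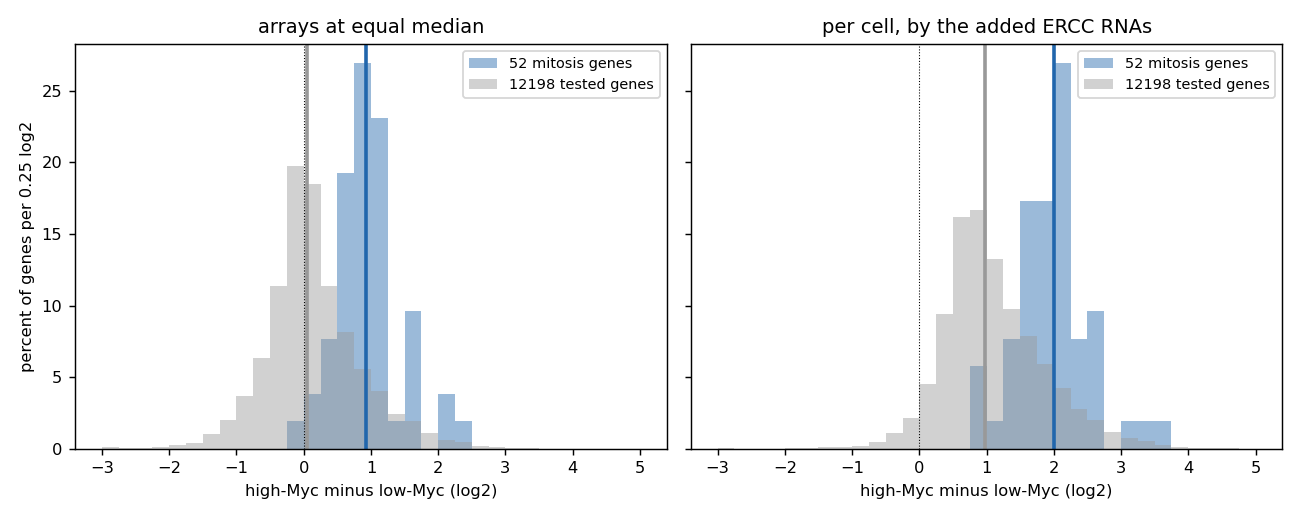
Distribution of the log2 difference between high-Myc and low-Myc cells (horizontal axis), as percent of genes per bin of 0.25 (vertical axis), for the 52 mitosis genes (blue) and the 12198 tested genes (grey), at equal median (left) and per cell (right). Vertical lines are medians, at 0.92 for the mitosis genes and 0.05 for all tested genes on the left, and at 2.00 and 0.98 on the right.

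At 1 h after release the mitosis genes stood close to their low-Myc levels. On the equal-median scale 9 of 52 (17.3%) were called higher and 0 lower in mid-Myc against low-Myc cells, where 25.7% of all tested genes were called higher and 3.39% lower. At an unadjusted p under 0.05 limma gave 15 higher and 3 lower. The shares of all tested genes above are at the adjusted threshold, and none was taken for unadjusted p, so these counts cannot be set against them. The median difference was 0.06, against 0.09 for all tested genes. SPC25 read 72.0 and 70.8 in mid-Myc cells against 54.8 and 55.2 in low-Myc cells (log2 0.38, SE 0.09, limma adjusted p = 0.00636). PLK4 read 135 and 131 in mid-Myc cells against 108 and 105 in low-Myc cells (log2 0.32, SE 0.08, limma adjusted p = 0.00945). For these genes both mid-Myc arrays lay above both low-Myc arrays.

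CENPN read 258 and 349 in mid-Myc cells against 242 and 225 in low-Myc cells (log2 0.36, SE 0.11), so 1 array carried most of its difference. CCNB2 read 309 and 255 in mid-Myc cells against 230 and 233 in low-Myc cells (log2 0.28, SE 0.09). The other genes called were CENPM, MAD2L1, NCAPG, SMC4 and UBE2C, at 0.20 to 0.27. None of the 8 kinesins and none of the 7 spindle and cytokinesis genes was called by limma after Benjamini-Hochberg adjustment. At an unadjusted p under 0.05 limma gave 2 kinesins higher, and 1 spindle gene higher and 1 lower, again without a share of all tested genes. With the mean of each gene's probe sets the calls of SMC4 (0.008), CENPN (0.095) and MAD2L1 (0.14) were lost. The calls at 1 h also depended on the scaling and on single arrays. They fell to 0 when arrays were centred on the tested genes, with 6 genes then called lower, to 2 without low-Myc replicate 2, to 4 without mid-Myc replicate 1 and to 5 without mid-Myc replicate 2.

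Per cell, 36 of the 52 genes (69.2%) were called higher at 1 h and 0 lower, where 62.7% of all tested genes were higher and 0.672% lower. The median was 0.29, against 0.30 for all tested genes. The 16 genes not called included AURKA, PLK1, INCENP, KIF20A, KIF18A and ASPM, and all 6 checkpoint genes were called.

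Between 1 h and 24 h the differences were close in size to those over the whole period, and both comparisons share the high-Myc arrays. On the equal-median scale 49 of 52 genes were called higher and 0 lower in high-Myc against mid-Myc cells, where 33.3% of all tested genes were higher and 30.9% lower. The median was 0.83, against 0.03 for all tested genes. CENPH differed by 2.20, MAD2L1 by 2.11 and SPC25 by 1.78. At the other end NCAPD2 differed by 0.24 (SE 0.07), a call lost when arrays were centred on the tested genes (0.15) and without high-Myc replicate 1 or mid-Myc replicate 2 (each 0.22). The remaining values there were 0.20 for PLK1 (SE 0.11) and 0.17 for KIF20A (SE 0.11), and PLK1, KIF20A and SGO1 were not called. The call of KIF4A (0.28) was also lost when arrays were centred on the tested genes (0.19), with the mean of its probe sets (0.22), and without high-Myc replicate 1 (0.24) or mid-Myc replicate 2 (0.23). Per cell, all 52 genes were called higher in the same comparison, where 81.8% of all tested genes were higher and 6.48% lower, with a median of 1.66 against 0.72.

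Other genes of mitosis followed in most cases. Of 100 further genes 99 were tested, and at equal median 78 were called higher and 6 lower in high-Myc against low-Myc cells (78.8% and 6.06%, against 37.7% and 26% of all tested genes), with a median of 0.69 against 0.05. Per cell all 99 were called higher, as were 91% of all tested genes, so the 6 genes lower at equal median had the opposite sign per cell. Mitotic entry held the most changed of them. CDC25A, a phosphatase that activates cyclin-dependent kinases, read 494 and 519 in high-Myc cells against 87.8 and 88.5 in low-Myc cells (log2 2.52, SE 0.07). Its relative CDC25B read 77.6 and 76.4 in high-Myc cells against 94.3 and 89.1 in low-Myc cells and fell by 0.25 (SE 0.09, limma adjusted p = 0.0265), a call lost with the mean of its probe sets (-0.08) and without either high-Myc array (-0.26 and -0.24) or low-Myc replicate 1 (-0.21). CDK1 and CCNB1, the kinase and cyclin that drive entry into mitosis, rose by 1.52 and 1.12.

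Of 24 kinetochore genes tested outside the 13, 18 were called higher and 1 lower at equal median. These are 75% and 4.17%, against 37.7% and 26% of all tested genes. SKA3 stood at 1.90 and CENPU at 1.81, while SKA2 fell by 0.38. SKA2 and SKA3 are subunits of 1 complex that strengthens the grip of kinetochores on microtubules. SKA2 read 289 and 261 in high-Myc cells against 348 and 366 in low-Myc cells, and SKA3 read 175 and 178 in high-Myc cells against 46.3 and 48.0 in low-Myc cells, so the 2 subunits moved in opposite directions at equal median. Per cell SKA2 was higher too, by 0.76.

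Of 9 genes of cohesin, which also works outside mitosis, 4 were called higher and 2 lower, with a median of 0.03, close to the 37.7% and 26% called and the median of 0.05 over all tested genes. CDCA5, the mitotic cohesin regulator sororin, rose by 1.93 and the ring subunits SMC1A and SMC3 by 1.10 and 1.03, while PDS5B fell by 0.36 and RAD21 by 0.13. With the mean of each gene's probe sets both calls were lost (-0.17 for PDS5B and -0.01 for RAD21), and that of RAD21 was also lost without high-Myc replicate 1 (-0.06) or low-Myc replicate 1 (-0.08). Of the factors that, as background, act at mitosis promoters with MuvB, FOXM1 read 85.3 and 85.0 in high-Myc cells against 46.0 and 46.3 in low-Myc cells (log2 0.88, SE 0.12). MYBL2, which encodes B-MYB, rose by 1.52, but its low-Myc arrays read 107 and 60.2 and were not alike. Of the 7 genes of MuvB and its partners, 6 were called higher and 0 lower, where 37.7% and 26% of all tested genes were. Their median was 0.43, in a range of -0.15 to 1.52. The calls of LIN52 (0.43), LIN54 (0.26) and RBBP4 (0.29) were lost when arrays were centred on the tested genes (0.23, 0.05 and 0.09). The spindle protein NUMA1, which anchors the poles, fell by 0.22, a call lost without high-Myc replicate 2 (-0.18) or low-Myc replicate 1 (-0.17). The DNA replication genes rose further, with 35 of 35 called higher at equal median, against 37.7% of all tested genes. Their median was 1.53, against 0.05.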

How the data were processed

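The authors deposited linear intensities per probe set, made with MAS5 per the submitters' processing notes, whose scaling target no source used here states. The extracts were total RNA, per the labels' protocols. The 49495 probe sets comprised 49293 human, 100 ERCC and 102 other control probe sets. Of the human ones 45278 carried 1 symbol, 1333 several and 2682 no listed symbol, and 45208 were updated through Entrez identifiers.

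Intensities were taken to log2. At equal median, each array was centred on its human probe sets. Per cell, each array's ERCC probe sets were fitted with a robust loess curve (degree 1, span 0.7), which was subtracted. In the deposited values, ERCC probe sets above the filter differed by a median of -1.25 (from -1.57 to -0.29) in high-Myc against low-Myc. In mid-Myc against low-Myc the median was -0.34 (from -0.60 to 0.13). Genes above the 40th percentile (33.8 intensity) were tested, 12198 in all, with all 6 arrays in 1 model with a variance trend (limma 3.58.1, R 4.3.3), two-sided, with Benjamini-Hochberg adjustment at 0.05. The fit was tested on simulated data. With 2 arrays against 2, the smallest p of an exact permutation test is 0.333, and the number of arrays limits the precision. No detection calls were used here.

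Genes were named as the 2 largest and the smallest change of each role group and those not called, the 4 largest rises at 1 h, the 3 largest and smallest between 1 h and 24 h, and the 4 largest and smallest of the other mitosis genes. Others are given with their group, and the markers, cohesin genes, CDK1, CCNB1, FOXM1 and MYBL2 outside that rule were chosen after their values were seen. The mitosis genes, lists and motifs were chosen with earlier results of these data known. Replicate numbers did not pair the arrays (correlation of deviations -0.003 to 0.002). Promoter sequences are from RefSeq (GRCh38.p14). Alternatives covered the filter, probe set choice, pseudocount, variance trend, replicate block, arrays left out, and scaling.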

Additional observations from a re-analysis of the deposited data

How the results depend on the processing

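The counts of mitosis genes called higher in high-Myc cells were stable under the alternatives run. Against low-Myc they ranged from 46 to 49 at equal median and 47 to 52 per cell, and against mid-Myc from 46 to 50 and 47 to 52, and the lowest of these came from the filter at the 60th percentile, which left 47 genes to test. Without 1 array each they ranged from 47 to 52. The median difference between high-Myc and low-Myc at equal median was 0.72 when arrays were centred on the tested genes, against -0.15 for all tested genes.

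The counts at 1 h at equal median were not stable. Against 9 higher and 0 lower, log2(value + 16) gave 5 higher and 1 lower, a fit without the variance trend 3 higher, quantile normalization and cyclic loess 1 higher and 4 lower each, centring on the tested genes 0 higher and 6 lower, and the deposited values 0 higher and 9 lower. The filter at the 60th percentile and the mean of each gene's probe sets gave 1 lower each. Leaving out 1 array gave 2 to 7 higher and 0 to 1 lower. The replicate block gave 8 higher and 1 lower, and changed no other count by over 1.5 times. The cause was not tested. The MYC difference between mid-Myc and low-Myc at equal median was 0.09, and it turned to -0.15 with quantile normalization, -0.16 with cyclic loess, -0.055 as deposited and -0.02 after centring on the tested genes. Of the other alternatives for named genes, 585 kept direction and call, 44 lost the call, 1 gained it and 5 uncalled values changed sign. Dim probe sets limit what can be read of PLK1, KIF20A and SGO1.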
